A study of Mus musculus with 12 samples.

Results

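The 41 genes described here mark the cells of the brain that are not neurons. They comprise 10 astrocyte genes, 13 genes of the oligodendrocyte lineage, 14 microglia genes and 4 genes of blood vessels, out of 55413 annotated genes, and the rule that names them uses no measured value. They were examined in peak lists of histone H4 lysine 12 acetylation (H4K12ac) from hippocampal nuclei that had been sorted as neuronal by fluorescence-activated sorting. *Tip60* cKO mice carried the *CaMKCreERT2* driver and floxed *Tip60* alleles (*Tip60 f/f*), and control mice carried *Tip60 f/f* without the driver. Mice of both genotypes had received tamoxifen as adults. The labels describe them as males of the strain C57BL/6J at 3 months of age, with 5 mice per genotype. The driver acts in postmitotic excitatory neurons of the forebrain, and so is not directed to glia or vascular cells, and the control carries no Cre. Input chromatin, pooled within each genotype, entered only the peak calling.

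Astrocytes clear transmitter and support synapses, oligodendrocytes wrap axons in myelin, microglia are the resident macrophages of the brain, and endothelial cells and pericytes form its vessels. Each of these cells keeps a small set of genes active that neurons keep silent. Acetylation of histone H4 at lysine 12, a modification that the acetyltransferase TIP60 can place, is known from the start sites and bodies of transcribed genes. Genes that only glia use are therefore a usual check on how far a sort has removed glial nuclei. With nuclei in bulk, fewer nuclei of a type and less acetylation in each of them cannot be told apart.

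The libraries held 22864189 to 37923809 tags after filtering and gave 64245 to 136409 peaks each. The shortest list, from *Tip60* cKO mouse 5, covered 22.6 Mb, and the others 39.6 to 65.5 Mb. Of 20 neuronal genes, 18 held a peak within 2 kb of the transcription start site (TSS) in all 10 lists, and none lacked one throughout. Like the other comparison lists, this one was chosen with earlier results of these data known. Mice 1 to 3 of both genotypes were run on lane 7 and mice 4 and 5 on lane 8. A TSS was the annotated 5′ end of a gene in GENCODE M21 on the build GRCm38 (mm10), and the window of 2 kb on either side of it is the TSS window. The TSS rank score places the fold enrichment of the highest peak in a gene's window on a percent scale over all annotated genes of that library, with 0 for a window without a peak. Since most windows were empty, a window with a peak scored at least 65.2 to 72.0, depending on the library, and the median window with a peak scored 82.3 to 86.0. TSS coverage is the percentage of these 4 kb occupied by peaks, and gene body coverage the same percentage from 2 kb after the TSS to the gene end, for genes over 4 kb.

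Promoters are shown for genes with a high and a low TSS rank score in each class. *Cnp* and *Aldh1l1* stand in for *Mbp* and *Aqp4*, the highest of the oligodendrocyte lineage and an astrocyte gene that, like *Aldh1l1*, scored 0 in all lists, and of the vascular genes the highest is shown. Sequences are the 250 bases before the RefSeq start on GRCm38.p6, read 5′ to 3′ on the gene's strand, with matches in capitals. Each promoter was searched on both strands for 6 motifs, none of which is contained in another. The GC box, which the factor SP1 binds, was searched as GGGCGG. The box of the factor NF-Y was searched by its 5 letters CCAAT. For the TATA box of core promoters the letters were TATAAA. The macrophage factor PU.1 was represented by GAGGAAGT. Factors of the SOX family, among them SOX9 and SOX10, were represented by ACAAAG. Basic helix-loop-helix factors such as OLIG2 were represented by the E-box CAGCTG. RefSeq promoters were matched for 30 of the 41 genes, and the others are *Aqp4*, *Sox9*, *Mbp*, *Olig1*, *Sox10*, *Tmem119*, *Csf1r*, *C1qa*, *Tyrobp*, *Spi1* and *Pecam1*. *Cnp* (chr11:100574689-100574938, + strand), acetylated in all 10 lists, and *Mog* (chr17:37023399-37023648, − strand), in none, come from the oligodendrocyte lineage.
Cnp: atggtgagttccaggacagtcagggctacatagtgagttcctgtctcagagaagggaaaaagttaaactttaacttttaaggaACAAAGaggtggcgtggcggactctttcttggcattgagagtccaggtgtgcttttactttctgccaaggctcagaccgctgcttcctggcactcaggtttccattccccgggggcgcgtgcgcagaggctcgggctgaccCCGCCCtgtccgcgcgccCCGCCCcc
Mog: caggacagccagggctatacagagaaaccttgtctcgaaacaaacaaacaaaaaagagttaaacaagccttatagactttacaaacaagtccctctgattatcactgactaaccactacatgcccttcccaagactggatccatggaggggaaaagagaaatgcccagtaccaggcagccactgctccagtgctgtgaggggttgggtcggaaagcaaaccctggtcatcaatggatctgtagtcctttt
The *Cnp* promoter held 13 CpGs, with GC box matches that begin 26 and 8 bases before the start and a SOX match at 167, and the *Mog* promoter held 2 CpGs and no match. *P2ry12* (chr3:59262986-59263235, − strand) had the highest rank score of the microglia genes and *Cx3cr1* (chr9:120068297-120068546, − strand) stands first in the list among those at 0.
P2ry12: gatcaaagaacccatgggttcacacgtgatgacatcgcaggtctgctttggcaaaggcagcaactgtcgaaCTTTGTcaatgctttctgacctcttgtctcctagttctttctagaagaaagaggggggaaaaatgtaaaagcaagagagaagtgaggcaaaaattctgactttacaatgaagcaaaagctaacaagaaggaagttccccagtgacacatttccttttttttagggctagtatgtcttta
Cx3cr1: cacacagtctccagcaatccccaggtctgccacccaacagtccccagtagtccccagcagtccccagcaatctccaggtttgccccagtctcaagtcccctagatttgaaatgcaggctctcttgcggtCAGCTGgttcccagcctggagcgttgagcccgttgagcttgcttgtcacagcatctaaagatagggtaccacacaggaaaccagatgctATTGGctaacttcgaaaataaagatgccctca
Neither holds the PU.1 motif as spelled here. *P2ry12* held 3 CpGs and a SOX match 179 bases before the start, and *Cx3cr1* 4 CpGs, an E-box match at 121 and a CCAAT match at 32. The RefSeq start of *Cx3cr1* lies 1583 bp downstream of the annotated 5′ end. *Vtn* (chr11:78498870-78499119, + strand) led the vascular genes, and its promoter held 9 CpGs and a palindromic run with overlapping TATA matches on both strands at 137 and 135.
Vtn: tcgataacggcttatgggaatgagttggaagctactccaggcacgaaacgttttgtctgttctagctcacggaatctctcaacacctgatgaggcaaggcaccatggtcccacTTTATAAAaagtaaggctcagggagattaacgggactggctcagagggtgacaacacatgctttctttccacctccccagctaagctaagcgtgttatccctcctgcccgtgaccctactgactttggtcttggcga

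The astrocyte genes *Slc1a2* and *Gfap* are shown at 2 places, since their RefSeq start lies 47779 and 3712 bp downstream of the annotated 5′ end around which peaks were counted. The first sequence of each pair is the 250 bases before the 5′ end (chr2:102658409-102658658, + strand, and chr11:102900913-102901162, − strand), and the second the RefSeq promoter (chr2:102706188-102706437, + strand, and chr11:102897201-102897450, − strand).
Slc1a2, 5′ end: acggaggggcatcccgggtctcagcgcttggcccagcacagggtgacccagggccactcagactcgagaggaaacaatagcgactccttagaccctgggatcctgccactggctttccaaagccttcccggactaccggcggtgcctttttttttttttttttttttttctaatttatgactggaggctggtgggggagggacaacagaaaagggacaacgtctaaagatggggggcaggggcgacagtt
Slc1a2, RefSeq start: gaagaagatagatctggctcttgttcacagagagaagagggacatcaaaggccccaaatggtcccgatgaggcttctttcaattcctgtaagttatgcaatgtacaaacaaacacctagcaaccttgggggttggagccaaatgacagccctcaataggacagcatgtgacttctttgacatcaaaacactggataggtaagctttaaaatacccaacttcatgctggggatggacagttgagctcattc
Gfap, 5′ end: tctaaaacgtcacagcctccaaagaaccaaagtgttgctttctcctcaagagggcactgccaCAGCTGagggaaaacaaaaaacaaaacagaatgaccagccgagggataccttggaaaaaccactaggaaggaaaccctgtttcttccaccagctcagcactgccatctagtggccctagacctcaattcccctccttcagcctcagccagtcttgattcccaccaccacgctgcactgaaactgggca
Gfap, RefSeq start: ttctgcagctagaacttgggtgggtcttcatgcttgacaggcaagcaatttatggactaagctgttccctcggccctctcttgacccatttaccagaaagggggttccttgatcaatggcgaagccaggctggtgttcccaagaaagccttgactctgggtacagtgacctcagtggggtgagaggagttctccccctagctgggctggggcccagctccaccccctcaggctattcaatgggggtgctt
At the 5′ end *Slc1a2* held 10 CpGs, and 1 at the RefSeq start. *Gfap* held 3 and 2, with an E-box match 188 bases before its 5′ end. *Aldh1l1* (chr6:90550543-90550792, + strand), at 0 in all lists, likewise has its RefSeq start 64366 bp downstream of the 5′ end that was scored, and no list held a TSS peak at either place. Its RefSeq promoter had 7 CpGs, a GC box match at 45 and CCAAT matches at 103 and 63 bases before the start.
Aldh1l1: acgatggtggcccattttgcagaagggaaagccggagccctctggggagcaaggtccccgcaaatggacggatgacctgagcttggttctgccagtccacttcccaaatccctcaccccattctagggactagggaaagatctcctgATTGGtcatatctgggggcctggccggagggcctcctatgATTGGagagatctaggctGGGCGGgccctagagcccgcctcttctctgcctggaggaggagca
Over the 16 matched genes with a TSS peak in at least 1 list the median was 7.5 CpGs, over the 14 with none 4, and over all 27025 RefSeq promoters the median was 6. Peaks were counted around the annotated 5′ end and CpGs before the RefSeq start, which are different places for *Slc1a2*, *Gfap*, *Aldh1l1* and *Cx3cr1*. Among all promoters, 32.9% held a GC box, 34.5% CCAAT, 13% TATAAA, 2.44% the PU.1 motif, 16.5% the SOX motif and 12.8% the E-box. Of the 9 matched microglia genes 1, *C1qc*, held the PU.1 motif.

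As a check of the sorted nuclei, the genes with a peak in the TSS window were counted in every library. Such a count does not measure an amount of glial chromatin, since genes of cells that the sort should keep can lack peaks. Genes of interneurons had a TSS peak at 17.5% in control and 20% in *Tip60* cKO mice, and the 20 neuronal genes at 100% and 98%. Of the 41 genes, 22 had no TSS peak in any of the 10 lists, 15 had one in some of the lists, and 4 had one in all, namely *Slc1a2*, *Mbp*, *Cnp* and *Vtn*. Among all protein-coding genes 34.7% had no TSS peak in any list and 44.0% had one in all, against 53.7% and 9.76% of the 41 genes. When a peak within 2 kb of any annotated transcript start was counted, 15 of the 41 genes were bare (36.6%) against 31.5% of protein-coding genes, and 6 of the 41 genes had a peak in all lists against 10600 of 21938 protein-coding genes. By class the bare genes were then 0 of 10 astrocyte genes, 5 of 13 of the oligodendrocyte lineage, 9 of 14 microglia genes and 1 of 4 vascular genes. At the annotated 5′ end, 9 to 13 genes were acetylated per control library and 9 to 12 per *Tip60* cKO library, beside 12242 to 12740 and 10966 to 12690 of all 21938 protein-coding genes.

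**Figure D1:**
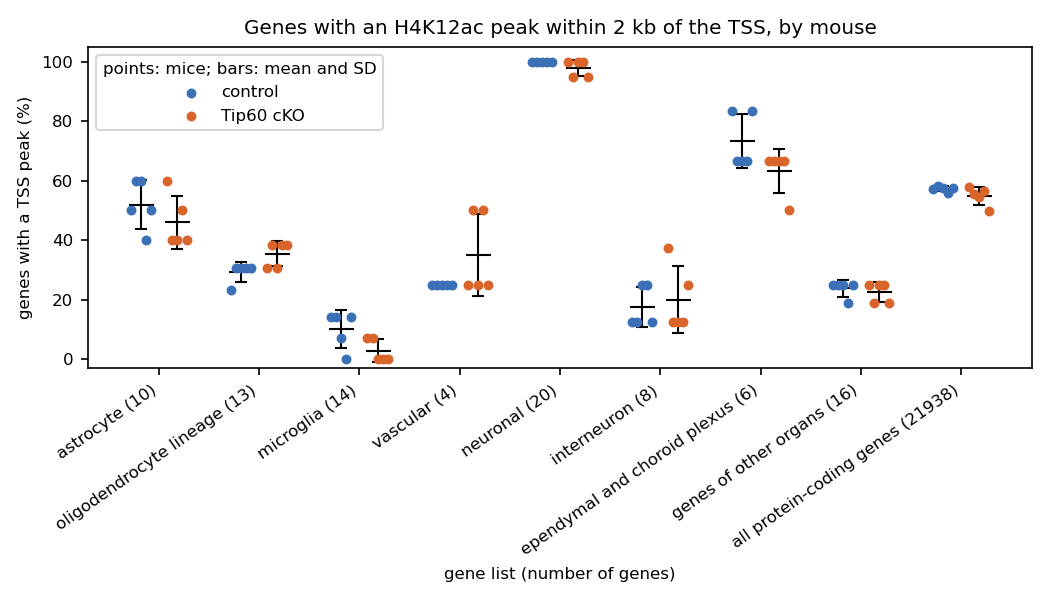
Percentage of the genes of each list with an H4K12ac peak within 2 kb of the TSS (y axis), with the 4 classes first and comparison lists after them (x axis, number of genes in brackets). Points are mice and bars the mean and SD of 5 mice; neuronal genes stand at 95 to 100% and microglia genes at 0 to 14.3%.

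As a percentage of the class, genes with a TSS peak were most frequent among the astrocyte genes and least frequent among the microglia genes. A TSS peak was present for 52.0 ± 8.37% of the astrocyte genes in control and 46.0 ± 8.94% in *Tip60* cKO mice (SD, n = 5 each), and for 29.2 ± 3.44% and 35.4 ± 4.21% of the genes of the oligodendrocyte lineage. For the microglia genes it was 10 ± 6.39% and 2.86 ± 3.91%, with 12 of 14 bare in all 10 lists. Over all protein-coding genes it was 57.3 ± 0.873% and 54.9 ± 3.02%, with the lowest share in *Tip60* cKO mouse 5. Of the 4 vascular genes, 1 had a TSS peak in every control mouse and 1 or 2 in *Tip60* cKO mice. Genes that brain cells do not use (16 genes of liver, muscle, pancreas, testis, skin and blood) gave 23.8 ± 2.80% and 22.5 ± 3.42%, with 11 of 16 bare, and the peaks there came from *Apoa1* and *Acta1* in 10 lists each, *Apoa2* and *Ckm* in 8 each and *Myh1* in 1. No difference between lists of genes was tested. Among 60 further genes of the same kinds of cells, the mean was 41.4% in control and 42.9% in *Tip60* cKO mice for 14 astrocyte genes. For 16 genes of the oligodendrocyte lineage it was 41.2% and 43.8%, just below the astrocyte genes in control and above them in *Tip60* cKO mice. It was 15.7% and 10% for 14 microglia genes, and 33.8% and 32.5% for 16 vascular genes. Which nuclei the peaks came from was not tested.

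**Figure D2:**
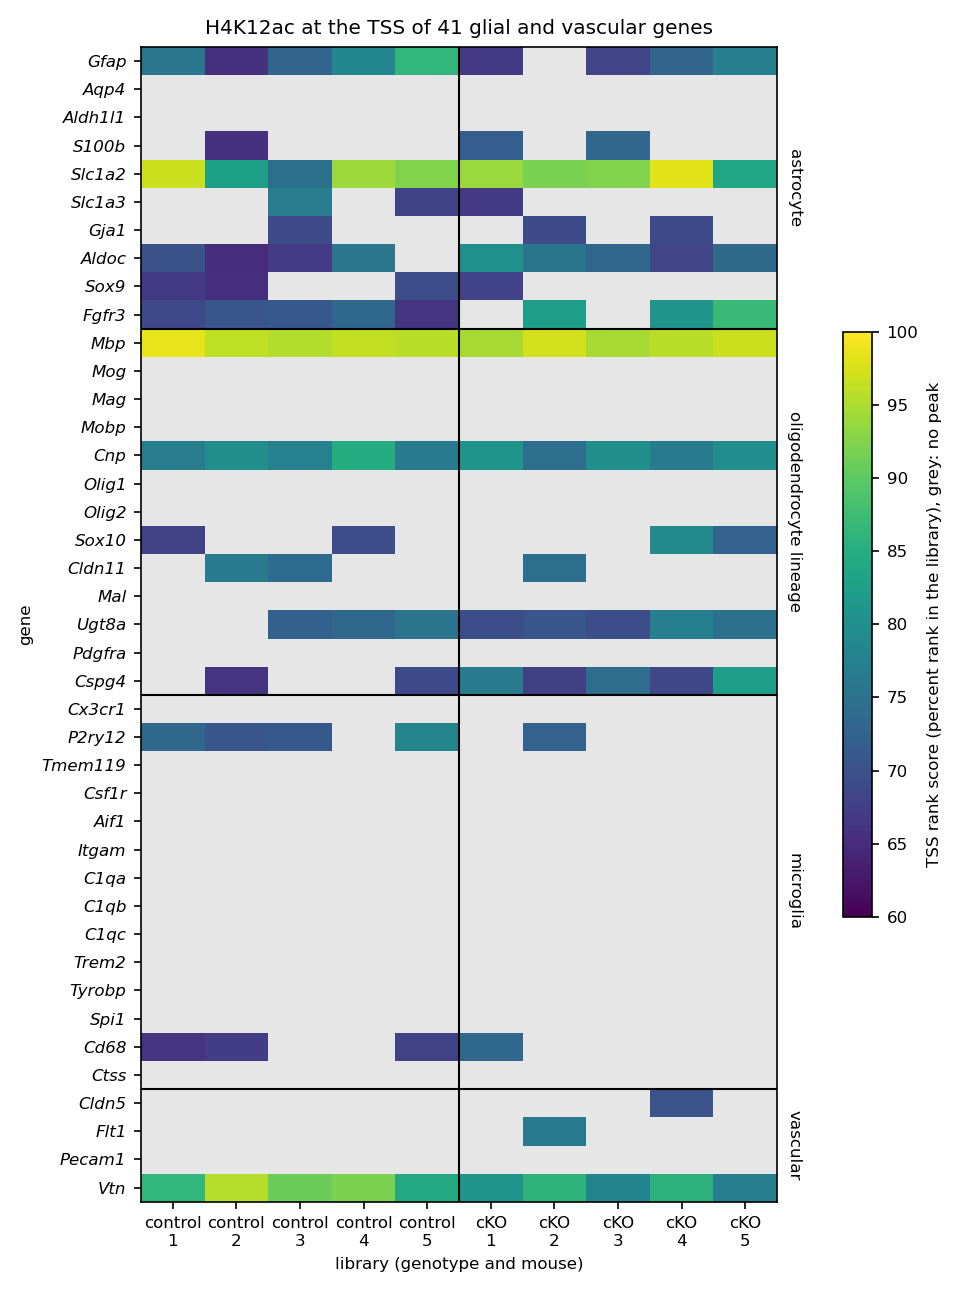
TSS rank score of each of the 41 genes (rows, by class) in each library (columns), coloured from 60 to 100, with grey for no peak. Full rows are *Slc1a2*, *Mbp*, *Cnp* and *Vtn*; 12 of the 14 microglia rows are grey throughout.

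Genotypes were compared gene by gene with limma across all genes with a TSS peak in at least 2 lists, a filter that 17 of the 41 genes passed. On the rank score no gene of the list was called at an adjusted p below 0.05, beside 51 of all 21672 genes tested (0.235%). Of these 51, 34 were lower in *Tip60* cKO and 17 higher. When each mouse was left out, 36 to 77 were lower and 15 to 41 higher. At an unadjusted p below 0.05, 2 genes of the list were lower in *Tip60* cKO, *P2ry12* and *Vtn*, and 1 higher, *Cspg4*, against 6.68% lower and 5.1% higher of all genes. The median difference in rank score over the 17 genes was −0.825, and over all genes tested −0.691. Over all genes it ranged from −1.35 without control mouse 4 to −0.381 without *Tip60* cKO mouse 5. On TSS coverage *Gfap* was called lower and none higher, against 1.53% lower and 0.0369% higher of all genes tested. The number of genes behind the share of lower calls, 331, ranged from 39 without control mouse 5 to 1405 without *Tip60* cKO mouse 1, and every fit that left out 1 mouse moved it by over 1.5 times. The 8 higher calls became 1 without control mouse 1 and 13 without *Tip60* cKO mouse 5. On this measure 3 of the 17 genes, *Gfap*, *Fgfr3* and *Vtn*, were lower at an unadjusted p below 0.05 (limma) and 2, *Cspg4* and *Ugt8a*, were higher. Of all 21672 genes tested, 4832 were lower and 193 higher at that limit. With the replicate block limma called 0 genes, and 4351 were lower at an unadjusted p below 0.05. The median difference in TSS coverage was −2.79 percentage points over the 17 genes and −4.01 over all. None of the 41 genes had a TSS peak in at least 4 more lists of either genotype than of the other, against 0.863% of the 23984 genes with any TSS peak for control and 0.263% for *Tip60* cKO.

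*Gfap* (chr11:102887336-102900912, − strand), the intermediate filament of astrocytes, had a TSS coverage of 17.2, 12.9, 20.4, 25.8 and 21.8% in control mice 1 to 5 and of 2.35, 0, 6.37, 8.35 and 5.95% in *Tip60* cKO mice 1 to 5. All *Tip60* cKO mice lay below all control mice, on lane 7 and on lane 8 alike, a separation shown by 4.72% of the 23984 genes with a TSS peak. The mean coverage fell by 15.0 percentage points (limma, SE 2.85, adjusted p = 0.0287), from 19.6 ± 4.87% to 4.60 ± 3.36% (SD, n = 5 each). Its rank score was 65.7 to 86.5 in control mice and 66.8 to 77.1 in the *Tip60* cKO mice with a peak, with no peak in mouse 2. The height of the strongest peak relative to other genes overlapped between the genotypes, and the length in peaks did not. No other of the 41 genes separated completely in either direction, and 0.142% of genes with a TSS peak separated with *Tip60* cKO above control.

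The call of *Gfap* was tied to the place that was counted. The annotated 5′ end belongs to a processed transcript without a coding sequence, and the principal protein-coding transcript starts 3781 bp downstream. The region from 847 bp before to 582 bp after the 5′ end held peaks in 5 control and 3 *Tip60* cKO lists. In the 4 kb around the principal start, coverage was 15.0, 10, 6.55, 14.9 and 20.9% in control mice 1 to 5 and 23.0, 20.1, 19.8, 16.7 and 0% in *Tip60* cKO mice 1 to 5, where mouse 5, with the shortest list, had no peak. The difference there was 2.45 percentage points higher in *Tip60* cKO and was not called (limma, adjusted p = 0.763). At the 5′ end, the *Gfap* call was also lost without control mouse 1, 3 or 5 or *Tip60* cKO mouse 2, 3, 4 or 5 (limma, adjusted p from 0.0505 to 0.0853) and with equal numbers of peaks per library, where the difference was −10.1 percentage points (adjusted p = 0.220). With a window of 1 kb the difference was −30.8 percentage points (limma, adjusted p = 0.0244), and over all transcript starts it was −6.67 and not called (limma, adjusted p = 0.193).

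**Figure D3:**
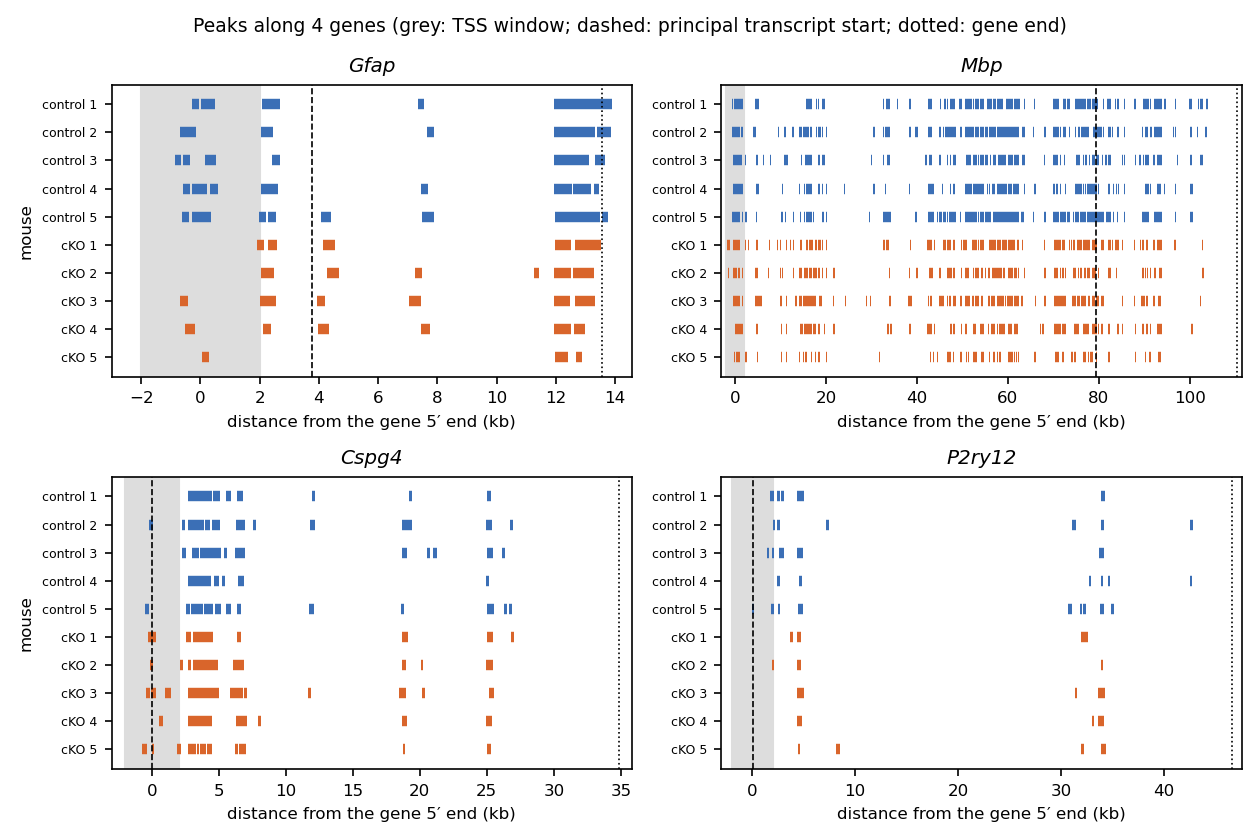
Peaks along *Gfap*, *Mbp*, *Cspg4* and *P2ry12* in every mouse (rows, control above *Tip60* cKO), by distance from the gene 5′ end in kb. The grey band is the TSS window, the dashed line the principal transcript start and the dotted line the gene end; at *Gfap* peaks fill 12.9 to 25.8% of the band in control mice and 0 to 8.35% in *Tip60* cKO mice.

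Of the other astrocyte genes, *Slc1a2* (chr2:102658659-102790784, + strand), the main glutamate transporter of astrocytes, held a TSS peak in every list. Its rank score was 96.8, 82.5, 74.8, 94.1 and 92.5 in control mice 1 to 5 and 94.0, 91.9, 92.4, 98.3 and 83.5 in *Tip60* cKO mice, and its coverage 46.2 ± 10.9% and 39.7 ± 9.08% (SD, n = 5 each). The genotypes overlapped in both measures (limma, adjusted p = 0.776 and 0.504). *Aldoc* (chr11:78322968-78327781, + strand), the brain form of the glycolytic enzyme aldolase, scored 69.9, 65.3, 66.9, 75.8 and 0 in control and 80.0, 75.6, 73.3, 68.3 and 73.9 in *Tip60* cKO mice. The difference in mean rank score was 18.6 and did not pass the test (limma, SE 13.3, adjusted p = 0.600). It was 4.74 without control mouse 5, which had no peak, 31.7 with peaks at q below 0.01, and 45.4 with equal numbers of peaks. *Sox9* (chr11:112782224-112787760, + strand), a transcription factor of astrocytes and neural progenitors, scored 66.8, 65.5, 0, 0 and 69.6 in control mice and 68.1, 0, 0, 0 and 0 in *Tip60* cKO mice (limma, adjusted p = 0.607). The difference of −26.8 was −40.4 without *Tip60* cKO mouse 1 and −0.304 with peaks at q below 0.01. Its peak from 2244 to 3251 bp after the TSS, just outside the window, was present in all 10 lists.

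*Fgfr3*, a receptor of fibroblast growth factors, had a TSS peak in 5 control and 3 *Tip60* cKO lists, and its coverage of 14.6 ± 6.00% and 5.91 ± 5.54% (SD, n = 5 each) was not called (limma, adjusted p = 0.172). With a window of 1 kb it was called, at −23.4 percentage points (limma, adjusted p = 0.0332). *Slc1a3*, *S100b* and *Gja1*, which encode another glutamate transporter, a calcium-binding protein and a gap junction protein, had a peak in 3 lists each. *Aqp4*, the water channel of astrocyte endfeet, and *Aldh1l1*, an enzyme of folate metabolism, had none in any list, also around their principal starts 7224 and 64362 bp downstream.

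In the oligodendrocyte lineage 6 of 13 genes had a TSS peak in at least 1 list and 7 had none. *Mbp*, which encodes myelin basic protein and, from a start far upstream, the golli proteins that neurons and immune cells also make, had the highest TSS rank score of all 41 genes. It was 98.5, 96.2, 95.4, 96.4 and 95.9 in control mice 1 to 5 and 94.8, 97.2, 94.7, 95.8 and 96.8 in *Tip60* cKO mice (limma, adjusted p = 0.897). This window is the golli start. The principal start of myelin basic protein lies 79384 bp downstream, and it too held a peak in all lists, with rank scores of 79.5 ± 3.24 in control and 82.1 ± 6.03 in *Tip60* cKO mice (SD, n = 5 each). The peaks of *Mbp* formed 67 separate regions along the gene, 13 of them present in all 10 lists. *Cnp* (chr11:100574904-100591729, + strand), an enzyme of myelin, scored 79.0 ± 3.49 and 78.2 ± 2.60 (limma, adjusted p = 0.910), from a region of peaks that reached from 290 bp before to 1665 bp after the start.

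*Cspg4* (chr9:56865033-56899870, + strand), the proteoglycan NG2 of oligodendrocyte precursors and pericytes, scored 0, 66.0, 0, 0 and 68.8 in control mice 1 to 5 and 76.3, 67.6, 74.3, 68.6 and 82.3 in *Tip60* cKO mice. The difference of 46.9 in mean rank score was the highest of the 41 genes and did not pass the test (limma, SE 15.7, adjusted p = 0.317). The start of another protein-coding gene, *Odf3l1*, lies 354 bp upstream, and peaks in this window cannot be assigned to either gene. *Ugt8a* (chr3:125865271-125938619, − strand), which makes the galactolipids of myelin, scored 0, 0, 72.4, 73.5 and 75.5 in control mice and 69.7, 70.7, 69.6, 77.3 and 74.8 in *Tip60* cKO mice (limma, adjusted p = 0.530). At both genes the *Tip60* cKO mice all had a peak and some control mice did not. With equal numbers of peaks per library the difference at *Ugt8a* turned from 28.1 to −13.9, and without control mouse 1 or 2 it was 17.1.

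*Sox10* and *Cldn11*, a lineage transcription factor and a tight junction protein of myelin, had a TSS peak in 4 and 3 lists. The other 7 genes had none in any list, and among them are defining genes of the lineage, namely the myelin genes *Mog*, *Mag*, *Mobp* and *Mal*, the transcription factors *Olig1* and *Olig2* and the precursor receptor *Pdgfra*. *Mobp* held a region of peaks from 24113 to 25257 bp after its start in 5 control and 4 *Tip60* cKO lists, near the start of a transcript with a retained intron.

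Among the microglia genes, *P2ry12* (chr3:59216272-59262871, − strand), a purinergic receptor of resting microglia, scored 73.3, 70.7, 70.9, 0 and 78.2 in control mice 1 to 5 and 0, 72.5, 0, 0 and 0 in *Tip60* cKO mice. The difference in mean of −44.1, the lowest of the 41 genes, did not pass the test (limma, SE 19.4, adjusted p = 0.419), and with all transcript starts it was −10.6 (limma, adjusted p = 0.803). Most of the peaks lay 1738 to 2195 bp after the TSS, at the edge of the window. Another region, from 2388 to 3114 bp, held peaks in 5 control lists and in no *Tip60* cKO list, and was picked out after its values were seen. Further in, the region from 4305 to 5028 bp held peaks in 4 control and 5 *Tip60* cKO lists. That from 33624 to 34376 bp held them in 5 control and 4 *Tip60* cKO lists. *P2ry12* lies within the gene *Med12l*, which spans these peaks as well, and the genes cannot be told apart there. *Cd68* (chr11:69664213-69666153, − strand), a lysosomal protein of macrophages, scored 66.2, 67.2, 0, 0 and 67.9 in control and 73.5, 0, 0, 0 and 0 in *Tip60* cKO mice (limma, adjusted p = 0.628), with a start of *Eif4a1* 1910 bp upstream. The difference of −25.5 at *Cd68* was −40.3 without *Tip60* cKO mouse 1, −12.3 with peaks at q below 0.01 and −13.0 with a window of 1 kb.

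The other 12 microglia genes had no TSS peak in any list. They comprise the receptors *Cx3cr1*, *Csf1r*, *Itgam* and *Trem2*, the surface protein *Tmem119*, the 3 chains of complement C1q (*C1qa*, *C1qb* and *C1qc*), the adaptor *Tyrobp*, the lineage factor *Spi1* (PU.1), *Aif1* (the antigen IBA1) and the protease *Ctss*. *Csf1r* lies near *Camk2a*, the gene whose promoter drives the Cre. Around its principal start, 5254 bp after the 5′ end, it scored 66.3, 79.5, 0, 70.9 and 0 in control and 79.2, 68.2, 80.8, 72.6 and 0 in *Tip60* cKO mice. Further in, from 7830 to 9219 bp, peaks stood in 4 control and 5 *Tip60* cKO lists. The local background under the *Csf1r* peaks, relative to the genome level of the library, was at most 1.53-fold in *Tip60* cKO and 1.49-fold in control mice.

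Of the vascular genes, *Vtn* (chr11:78499091-78502324, + strand), the adhesion protein vitronectin that pericytes make in the brain, scored 86.5, 95.6, 91.0, 92.2 and 84.3 in control mice 1 to 5 and 80.7, 86.0, 78.1, 85.7 and 77.1 in *Tip60* cKO mice. The difference of −8.41 in mean rank score did not pass the test (limma, SE 2.89, adjusted p = 0.335), nor did that of −13.8 percentage points in TSS coverage (limma, SE 4.83, adjusted p = 0.130), which was called when control mouse 4 was left out (adjusted p = 0.0419). The most frequent peaks of *Vtn* lay upstream, from 2311 to 1374 and from 1189 to 509 bp before its start, and the start of *Sarm1*, a gene that neurons use, lies 1337 bp upstream between them. *Cldn5*, the tight junction protein of brain endothelium, and *Flt1*, a receptor of vascular endothelial growth factor, had a TSS peak in 1 *Tip60* cKO list each, and *Pecam1*, an adhesion protein of endothelium, in none.

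**Figure D4:**
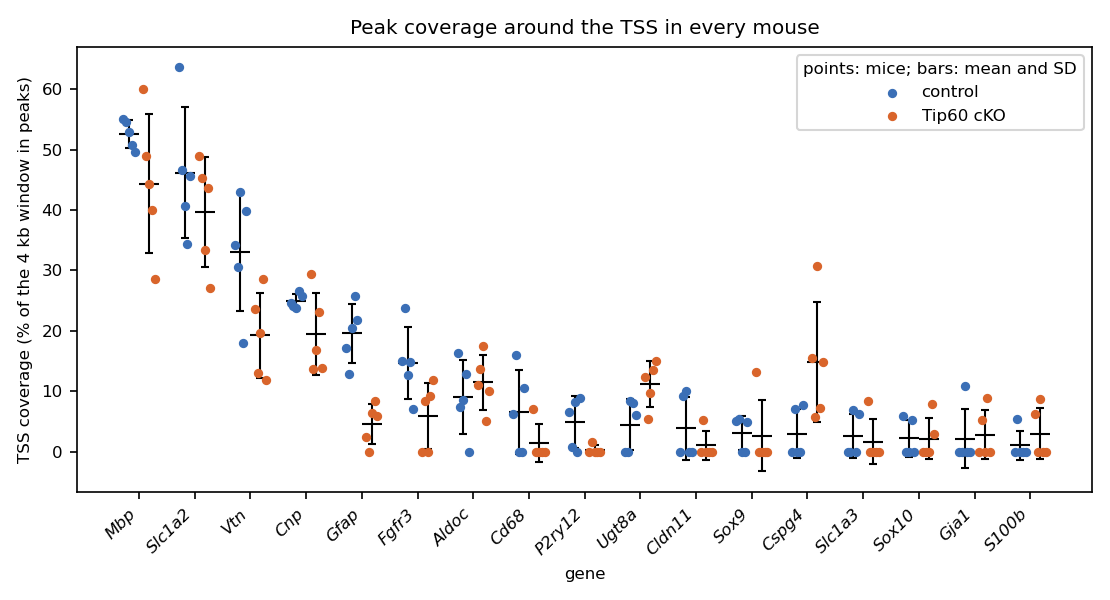
TSS coverage, the percentage of the 4 kb window in peaks (y axis), of the 17 genes with a TSS peak in at least 2 lists (x axis). Points are mice and bars the mean and SD of 5 mice; *Gfap* is the gene whose *Tip60* cKO points all lie below its control points.

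Over gene bodies, 33 of the 41 genes were long enough to be measured. Of these, 10 had peaks in the body in all 10 lists, 13 in some, and 10 in none, against 28.3% in all and 38.8% in none of the protein-coding genes. The 23 genes with a body peak in at least 2 lists entered the test, in which none was called, beside 45 of all 12823 genes tested (0.351%), each of them lower. Of all genes, 0 were called without control mouse 5, without *Tip60* cKO mouse 5 or with the replicate block, and 249 lower and 1 higher without control mouse 4. In those 3 fits without a call (limma), 1446, 1256 and 1472 genes were lower at an unadjusted p below 0.05. At an unadjusted p below 0.05 there were 3, *Slc1a2*, *P2ry12* and *Pecam1*, all lower in *Tip60* cKO, against 14.9% of all genes. The median difference in gene body coverage was −0.744 percentage points over these 23 genes and −0.528 over all genes tested. Over all genes it ranged from −0.827 without *Tip60* cKO mouse 1 to −0.269 without *Tip60* cKO mouse 5, and was −0.249 with equal numbers of peaks.

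*Mbp* had the highest gene body coverage, at 30.8, 35, 25.8, 24.8 and 35.3% in control mice 1 to 5 and 29.6, 24.3, 30, 23.9 and 15.2% in *Tip60* cKO mice, and the ranges overlapped (limma, adjusted p = 0.461). *Aif1* (chr17:35170991-35176068, − strand) followed with 18.4, 7.54, 39.9, 20.3 and 18.8% and with 22.1, 21.4, 37.3, 0 and 7.51% (limma, adjusted p = 0.896). Its peaks formed a region from 2113 to 3860 bp after the 5′ end, in a short gene whose other transcripts start there. *Gfap* had 21.3, 19.0, 14.7, 19.2 and 24.0% in control and 19.4, 21.6, 21, 16.7 and 5.51% in *Tip60* cKO mice (limma, adjusted p = 0.719). Its largest body region, at the 3′ end from 11923 to 13904 bp and in all 10 lists, lies within 2 kb of the start of *Fam187a*. Body coverage of *Gfap* overlapped between genotypes where its TSS coverage did not.

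**Figure D5:**
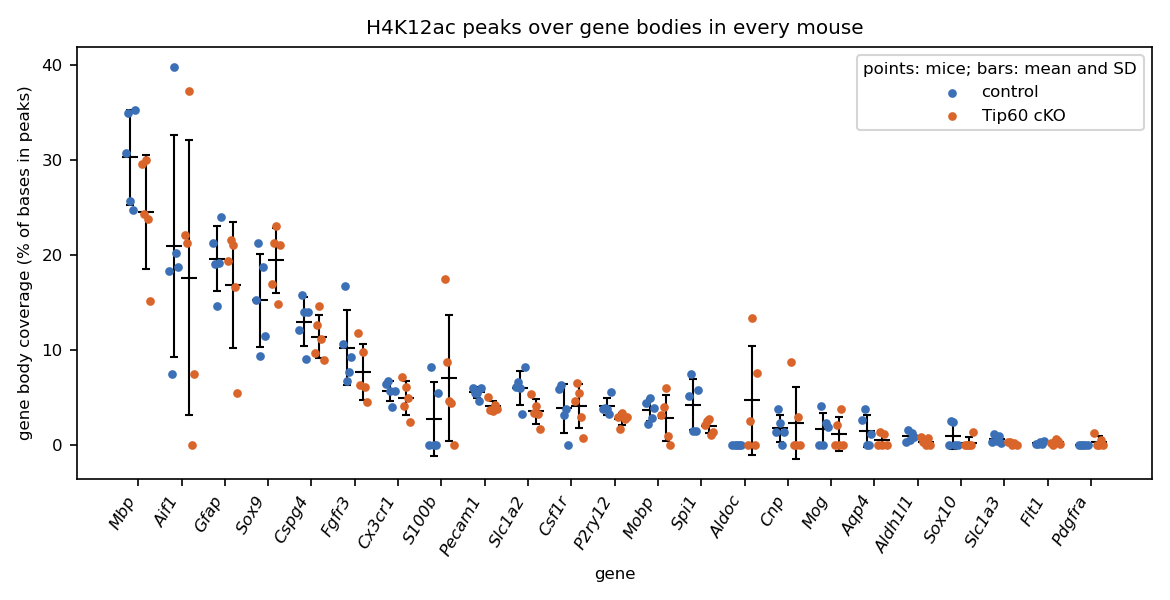
Gene body coverage, the percentage of bases in peaks (y axis), of the 23 genes with a body peak in at least 1 list (x axis, in order of the mean). Points are mice and bars the mean and SD of 5 mice; the genotypes overlap at *Mbp*, *Aif1* and *Gfap*.

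Several genes that were bare at the TSS held acetylated bodies. *Pecam1* (chr11:106654217-106750628, − strand) had a coverage of 6.08, 5.49, 5.51, 4.64 and 6.07% in control and 5.10, 3.68, 3.60, 4.21 and 3.84% in *Tip60* cKO mice, a difference of −1.47 percentage points that was not called (limma, SE 0.389, adjusted p = 0.138). *Cx3cr1* (chr9:119901616-120069879, − strand), the fractalkine receptor of microglia, had 5.74 ± 1.05% and 4.99 ± 1.81% (SD, n = 5 each). An annotated transcript of *Cx3cr1* runs across neighbouring genes, and 8 of its 10 regions with peaks in at least 6 lists overlapped *Wdr48*, *Gorasp1*, *Ttc21a* or *Csrnp1*. *Spi1* held a region in all 10 lists from 32507 to 33456 bp after its 5′ end, at the end of the gene. *Mog* had 0, 4.16, 0, 2.37 and 1.93% in control and 0, 2.08, 0, 3.86 and 0% in *Tip60* cKO mice, and *Aqp4* 2.71, 3.81, 0, 0 and 1.21% and 0, 1.41, 0, 1.19 and 0%. Neither a TSS nor a body peak was found in any list for *Mag*, *Mal*, *Tmem119*, *Itgam*, *C1qb*, *Trem2* and *Ctss*. These are 7 of the 33 genes, against 4341 of the 18694 protein-coding genes over 4 kb.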

How the data were processed

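H4K12ac ChIP-Seq was performed by the authors on sorted neuronal nuclei of 5 *Tip60* cKO and 5 control hippocampi. The authors mapped reads to mm10 with STAR and cleared them of duplicates (SAMtools). MACS 2.1.0.20140616 then gave 1 peak list for each library, at a q-value limit of 0.1, with the input pooled over mice of that genotype as control. The deposited lists give for each peak the pileup, a coverage signal, the fold enrichment, a ratio of pileup to local background with 1 added to both, and −log10 values of the p-value and q-value, as the authors obtained them from MACS. A window without a peak was below this threshold at the depth of its library, and the lists hold no counts, so that the precision is the spread between mice. No column of another sample was used. Replicate numbers name different mice.

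Genes and transcripts were taken from GENCODE M21. A peak counted with at least 1 base in a window. Rank scores and coverages were compared with limma 3.58.1 (lmFit, eBayes) in R 4.3.3 over all genes with a peak in at least 2 lists, with Benjamini-Hochberg adjustment over all of them and a threshold of 0.05. Other values were computed with Python 3.11.15, numpy 2.4.6 and pandas 2.3.3. The limma step was tested on simulated data. No outcome is given here for genes with a peak in only some of the lists, as most of the tested genes of the list were. A difference that did not pass the test is therefore not shown to be absent. Values in every mouse are given for genes called by limma in the main comparisons, the highest and lowest TSS rank score of each class, the 3 largest falls and rises of that score, the 3 highest gene body coverages and *Csf1r*. Other genes and regions named were chosen after their values were seen. The rule that names the genes uses no measured value, but the genes and comparison lists were chosen with earlier results of these data known.

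Alternatives were q below 0.01, the 64245 strongest peaks of each library, a window of 1 kb, all transcript starts, ranking by pileup, log2 relative fold enrichment, presence in at least 4 more lists of either genotype, filters of 1 or 5 lists, the whole gene, the lane as covariate, a mean-dependent robust prior, the replicate block and each mouse left out. The principal transcript start (APPRIS) was added after seeing the data. The strain and sex of the labels (C57BL/6J, male) differ from those in the paper, and neither entered a comparison.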

Additional observations from a re-analysis of the deposited data

Results flagged for a closer look

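In 79 groups of 5 mice, 12 values stood apart from the other 4 by Dixon's criterion, which chance meets in about 1 of 20 groups, and many of these groups hold a peak in only 1 or in 4 of 5 mice. A lone peak stood out at the TSS in *Tip60* cKO mice for *P2ry12* (rank score 72.5, coverage 1.60%, mouse 2), *Sox9* (68.1 and 13.3%, mouse 1) and *Cd68* (73.5 and 7.07%, mouse 1). A lone missing peak, with a rank score of 0, stood out for *Gfap* in *Tip60* cKO mouse 2, for *P2ry12* in control mouse 4 and for *Aldoc* in control mouse 5. Gene body coverage of *P2ry12* was high in control mouse 5, at 5.64%. Control mice differed in the number of genes with a TSS peak for the oligodendrocyte lineage, where the lowest had 3 against 4 in the others, and for genes of other organs, likewise 3 against 4.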

How the results depend on the processing

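No gene of the list was called on the TSS rank score or on gene body coverage under any of the alternatives run, leave-one-out fits included. On TSS coverage, where *Gfap* was called, the count of called genes was 0 with equal numbers of peaks (*Gfap*, −10.1 points), with all transcript starts (*Gfap*, −6.67 points) and with the principal transcript start, and 2 with a window of 1 kb (*Gfap*, −30.8 points, and *Fgfr3*). It was 0 to 2 when each mouse was left out, with *Vtn* as the second gene without control mouse 4. The *Gfap* call was lost without control mouse 1, 3 or 5 and without *Tip60* cKO mouse 2, 3, 4 or 5 (adjusted p from 0.0505 to 0.0853, limma), where the difference was −13.9 to −15.9 percentage points, and was kept without control mouse 2 or 4 or *Tip60* cKO mouse 1. With the replicate block the count of called genes was 0 (*Gfap*, −15.0 points as in the main fit, limma, adjusted p = 0.0978). Same-numbered mice did not deviate together (r from −0.0375 to 0.0552, against −0.0789 to 0.0854 for mice of different numbers). Correlations this small cannot show whether mice were paired by litter or batch, which was not tested. Signs turned at the principal transcript start for *Gfap* coverage (2.45 points) and the *Mbp* rank score (2.66), and with equal numbers of peaks for the *Ugt8a* rank score (−13.9). The cause was not tested, except that the principal start of *Gfap* and of *Mbp* is another window. The 8 genes up to 4 kb long had no gene body value. Depth limits a missing peak to below the calling threshold, most of all in *Tip60* cKO mouse 5.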

Other observations

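Along *Gfap*, peaks lay from 3946 to 4669 bp after the 5′ end, next to the principal start, in 1 control and 4 *Tip60* cKO lists, whereas the region around the 5′ end held them in 5 control and 3 *Tip60* cKO lists. These regions were picked out after their values were seen, and the difference between them was not tested.

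Genes of ependyma and choroid plexus, other cells that line the ventricles beside the hippocampus, held a TSS peak at 73.3 ± 9.13% in control and 63.3 ± 7.45% in *Tip60* cKO mice (SD, n = 5 each), with 3 of 6 genes acetylated in all lists. Genes of interneurons, which the sort should keep, gave 17.5 ± 6.85% and 20 ± 11.2%. Both are short lists, and no difference between lists was tested.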
